A study of Mus musculus with 6 samples.

Results

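The carboxylesterases are serine hydrolases of the endoplasmic reticulum, and their transcripts were followed in the colon of 6 male BALB/c mice on Affymetrix Mouse Gene 2.0 ST arrays. The family was given as 10 named genes (Ces1d, Ces1e, Ces1f, Ces1g, Ces2a, Ces2b, Ces2c, Ces2e, Ces2g and Ces3a), and a gene was measured where a row of the value table carried its symbol alone. That held for 9 of the 10, with 1 row each, out of 22180 gene symbols in all. Ces2c had no such row, so its signal is not analysed here. The rule took the row with the highest mean for each gene, which left nothing to choose. The family was chosen by name, with the genotype difference of Ces2a already known from these arrays, so the values of Ces2a are a description and support nothing further.

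Of the mice, 4 were wild type (Mthfd1S+/+, called WT here) and 2 were heterozygous (Mthfd1S+/-), with 1 array per mouse; values of single mice are given in the order of their replicate numbers, 1 to 4 in WT and 1 to 2 in heterozygotes. Mthfd1 encodes a cytosolic folate enzyme, and Mthfd1S+/- mice are deficient in its synthetase activity, which loads formate onto tetrahydrofolate. All 6 mice, WT included, had been backcrossed to BALB/c for at least 10 generations and treated with azoxymethane (AOM, a colon carcinogen; 6 mg/kg) and 2 cycles of 4 days of 3% dextran sulfate sodium (DSS, toxic to the epithelium of the colon) in weeks 1 and 4 after the AOM. Animals were killed in week 13; an age of 7 months stands in the labels, against 3 months at the AOM injection in the protocol. The tissue was colonic mucosa that looked normal, beside tumours, so no untreated colon is in the comparison. Array medians ran from 5.485 to 5.532 on the log2 scale. The smooth muscle marker Acta2 (12.46 to 12.84) and the epithelial marker Krt20 (11.70 to 12.05) were both bright in every sample.

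Carboxylesterases cleave ester and amide bonds in drugs, prodrugs, environmental esters and lipids. In humans a CES1 enzyme dominates in liver and a CES2 enzyme in intestine, where it activates the prodrug irinotecan; in the mouse both branches have been multiplied by tandem duplication. Members of the Ces1 branch act on triacylglycerol and cholesteryl esters in liver and fat, and members of the Ces2 branch are known from the epithelium of the gut. Several of the genes are induced through the xenobiotic receptors PXR (Nr1i2) and CAR (Nr1i3).

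According to RefSeq (assembly GRCm38.p6), all 20 listed family genes lay on chromosome 8, in 2 runs. Ces1a to Ces1h followed each other and were followed by Ces5a, and Ces2a, Ces2b, Ces2c, Ces2d-ps, Ces2e, Ces2f, Ces2g, Ces2h, Ces3a, Ces3b and Ces4a formed the other run. The promoters of 3 genes of the Ces2 run are shown because the first of them stood higher in Mthfd1S+/- colon and the others did not. Each is given as the 250 bases before the RefSeq gene start on GRCm38.p6 (plus strand), with capitals marking the motifs searched.
Ces2a, chr8:104733753-104734002: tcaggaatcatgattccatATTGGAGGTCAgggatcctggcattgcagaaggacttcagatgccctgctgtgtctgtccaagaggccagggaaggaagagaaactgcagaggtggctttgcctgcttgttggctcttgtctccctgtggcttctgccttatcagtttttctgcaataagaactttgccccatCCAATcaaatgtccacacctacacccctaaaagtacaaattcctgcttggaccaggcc
Ces2e, chr8:104926010-104926259: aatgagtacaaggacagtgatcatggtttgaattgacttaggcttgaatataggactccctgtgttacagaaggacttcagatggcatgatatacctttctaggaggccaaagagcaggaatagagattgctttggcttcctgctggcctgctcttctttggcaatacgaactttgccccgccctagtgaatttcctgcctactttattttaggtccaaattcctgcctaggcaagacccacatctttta
Ces2g, chr8:104961468-104961717: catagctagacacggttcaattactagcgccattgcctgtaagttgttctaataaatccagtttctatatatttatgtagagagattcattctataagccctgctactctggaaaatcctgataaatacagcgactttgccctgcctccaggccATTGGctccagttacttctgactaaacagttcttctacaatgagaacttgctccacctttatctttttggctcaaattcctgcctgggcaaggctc

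Motifs were searched on both strands: AGGTCA, which nuclear receptors bind, GTTAAT, part of the HNF1 site, the TATA box TATAAA and the CCAAT box CCAAT. The Ces2a window held AGGTCA once, starting 226 bases before the gene start, next to a reverse CCAAT box at 231, and a second CCAAT box at 58. The Ces2g window held a reverse CCAAT box at 96, and in the Ces2e window these letters were not found. Over 32851 promoter windows of this length, AGGTCA occurred in 14.0%, GTTAAT in 6.43%, TATAAA in 12.4% and CCAAT in 33.8%. Aligned end to end with gaps allowed, the Ces2a window matched that of Ces2e at 65.6% of its 250 bases and that of Ces2g at 62.4%. Its closest match was the window of the unmeasured Ces2c, not shown, at 70.0%. The windows of Ces1e and Ces1g matched that of Ces2a at 59.2% and 58.4%. Between the branches, the Ces1e and Ces2e windows matched each other at 62.0%. Windows of unrelated genes were not aligned for comparison. A match describes letters and is no evidence of binding.

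Of the 9 measured members, 6 were higher and 3 lower in Mthfd1S+/- than in WT colon, where 54.0% of all 23521 tested rows were higher. None passed the adjusted threshold of 0.05 in limma (0.0% of all rows did, with a smallest adjusted p of 0.837). At an unadjusted p under 0.05 were 2 members, Ces2a and Ces1e, both higher, where 5.79% of all rows passed in either direction, 3.36% as higher and 2.44% as lower. The groups did not overlap for 2 members, Ces2a and Ces1d, both higher, against 14.0% of all rows in either direction and 7.96% as higher. The median log2 difference of the 9 was 0.21, beside 0.012 over all rows. Ces2a, whose difference was known beforehand, is part of each of these counts and of the median, so they are a description. Apart from Ces2a, only Ces1e passed the unadjusted threshold, and only Ces1d did not overlap, by 0.020. In bulk tissue, fewer cells of a type and less RNA per cell cannot be told apart, and probes for 1 family gene may read the transcripts of its close relatives.

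**Figure D1:**
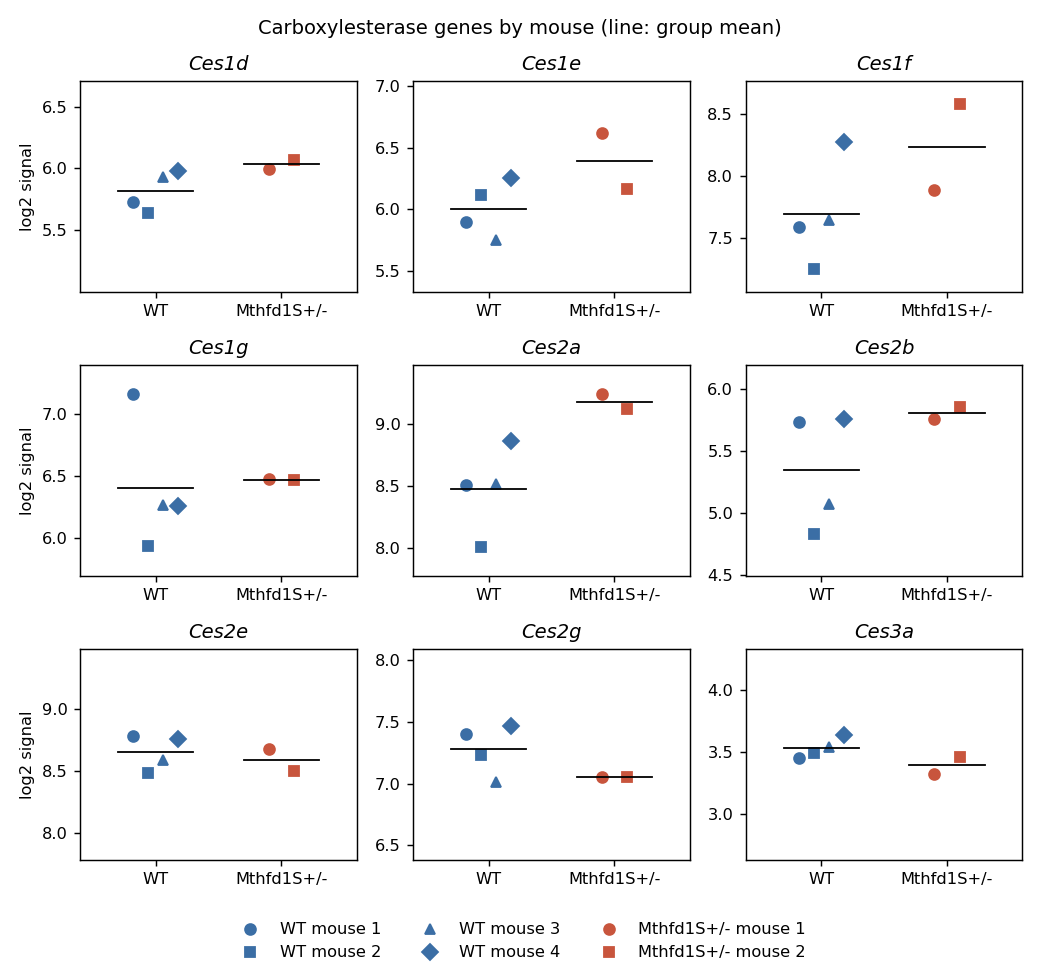
Log2 signal of each measured carboxylesterase gene (vertical axis, the same span of 1.7 in every panel) in the 4 WT mice (blue) and 2 Mthfd1S+/- mice (red), with a symbol per mouse and a line at each group mean. The red points of Ces2a, 9.24 and 9.12, sit above all 4 blue points, while those of Ces2e, Ces2g and Ces1g lie within the range of the WT mice.

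Ces2a is an esterase of gut and liver that also acts on diacyl- and triacylglycerol. Its log2 signal was 8.51, 8.01, 8.52 and 8.87 in WT and 9.24 and 9.12 in heterozygous mice. Both Mthfd1S+/- mice stood above every WT mouse, with a gap of 0.25 between the nearest pair, WT mouse 4 and the second Mthfd1S+/- mouse. The means were 8.48 ± 0.35 (SD, n = 4) and 9.18 ± 0.088 (SD, n = 2). Their log2 difference was 0.71 ± 0.20 (SE; 95% interval 0.25 to 1.16), which is 1.63-fold; the limma adjusted p was 0.837. With any 1 mouse left out the difference ran from 0.55 to 0.84.

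Ces2b, the next gene of the same run, varied more between WT mice. It read 5.73, 4.83, 5.07 and 5.76 in WT and 5.75 and 5.85 in heterozygous mice. WT mice 1 and 4 were level with the Mthfd1S+/- mice and WT mice 2 and 3 lay well below. The mean of Ces2b lay at percentile 41.1 of tested rows, below their median. The difference was 0.46 ± 0.26 (SE; -0.13 to 1.04; adjusted p 0.864 in limma), and without WT mouse 2 it was 0.29.

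The remaining Ces2 members, Ces2e and Ces2g, had slightly lower means in Mthfd1S+/- colon. Ces2e read 8.78, 8.48, 8.58 and 8.76 in WT and 8.68 and 8.50 in heterozygous mice, and the heterozygous values lay inside the WT range. Its difference was -0.063 ± 0.11 (SE; -0.32 to 0.20). Ces2g read 7.40, 7.23, 7.01 and 7.46 in WT and 7.05 and 7.06 in heterozygous mice, where only WT mouse 3 was lower. Its difference was -0.22 ± 0.13 (SE; -0.52 to 0.074). Neither passed in limma (adjusted p 0.958 and 0.869). In limma the 95% interval of Ces2e ended below the lower bound of that of Ces2a. With unmoderated least squares the intervals overlapped, at -0.40 to 0.27 for Ces2e and -0.035 to 1.45 for Ces2a. The difference between the genes was not tested.

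Among the Ces1 genes, Ces1e encodes egasyn, the esterase that holds beta-glucuronidase in the endoplasmic reticulum. It read 5.90, 6.11, 5.76 and 6.26 in WT and 6.62 and 6.17 in heterozygous mice. The first Mthfd1S+/- mouse stood above all WT mice, and the second below WT mouse 4. The difference was 0.38 ± 0.17 (SE; 0.000595 to 0.77), with a limma adjusted p of 0.837 (0.0497 unadjusted). Leaving out heterozygous mouse 1 gave 0.16, and leaving out mouse 2 gave 0.61.

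Ces1f, a lipid hydrolase known from liver, read 7.58, 7.25, 7.64 and 8.28 in WT and 7.88 and 8.58 in heterozygous mice. WT mouse 4 stood between the Mthfd1S+/- mice, which were 0.70 apart. The difference was 0.54 ± 0.28 (SE; -0.091 to 1.18; adjusted p 0.855 in limma), and it was 0.89 when heterozygous mouse 1 was left out and 0.20 when mouse 2 was.

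Ces1d, the triacylglycerol hydrolase of liver and fat, read 5.73, 5.64, 5.93 and 5.98 in WT and 5.997 and 6.07 in heterozygous mice. The groups did not overlap, but WT mouse 4 and the first Mthfd1S+/- mouse were nearly level. The mean of Ces1d lay at percentile 48.7 of tested rows, below their median. The difference was 0.21 ± 0.11 (SE; -0.048 to 0.47; adjusted p 0.861 in limma). Ces1g, which acts on lipids in liver, read 7.16, 5.93, 6.26 and 6.25 in WT and 6.47 and 6.46 in heterozygous mice. Here WT mouse 1 was far above the other 3, and the Mthfd1S+/- mice lay between. The difference was 0.068 ± 0.28 (SE; -0.58 to 0.72; adjusted p 0.987 in limma); without WT mouse 1 it was 0.32 and without WT mouse 2 it was -0.089.

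Ces3a, known mainly from liver, had values of 3.45, 3.49, 3.54 and 3.63 in WT and 3.32 and 3.46 in heterozygous mice. Its mean lay at the 10.5th percentile of tested rows, and detection calls were not used here, so these values cannot be told from background. The difference was -0.14 ± 0.091 (SE; -0.35 to 0.070; adjusted p 0.880 in limma), and it was -0.072 without heterozygous mouse 1 and -0.20 without mouse 2.

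**Figure D2:**
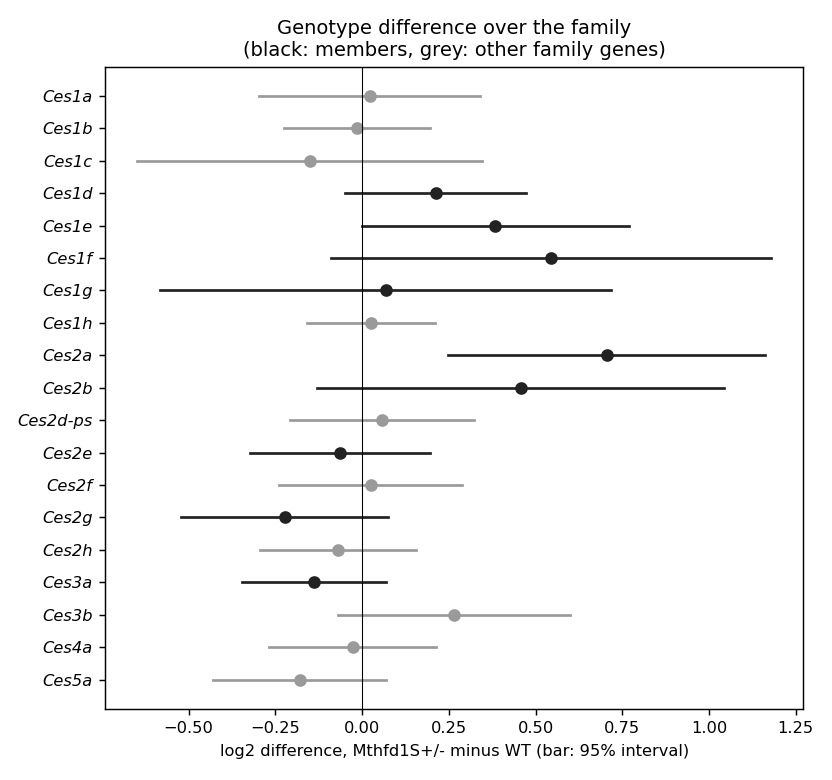
Log2 difference between Mthfd1S+/- and WT mice (horizontal axis) for the 9 measured members (black) and 10 other carboxylesterase genes (grey), as points with 95% intervals from limma. The intervals of Ces2a (0.25 to 1.16) and Ces1e (0.000595 to 0.77) lie above 0 and those of the other 17 genes include it.

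The 10 other family genes (Ces1a, Ces1b, Ces1c, Ces1h, Ces2d-ps, Ces2f, Ces2h, Ces3b, Ces4a and Ces5a) divided evenly. In Mthfd1S+/- colon 5 were higher and 5 lower, with 0 at an unadjusted p under 0.05 and a median log2 difference of 0.0031. Their differences ran from -0.18 for Ces5a to 0.26 for Ces3b, and the groups overlapped for all 10. Only Ces2d-ps had a mean above the median of tested rows, so most of these genes were dim.

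Many members ranked the mice of 1 genotype alike. WT mouse 2 had the lowest WT value for 6 of the 9 members, and WT mouse 4 the highest for 7 of 9. How often these mice hold those places over all tested rows was not counted. Among WT mice the smooth muscle list mean, too, was lowest in mouse 2 (-0.25) and highest in mouse 4 (0.11). With each gene centred over the 6 mice, the mean of the 4 Ces1 genes was 0.013, -0.35, -0.18 and 0.11 in WT and 0.16 and 0.24 in heterozygous mice. For the 4 Ces2 genes it was 0.095, -0.37, -0.22 and 0.20 in WT and 0.17 and 0.12 in Mthfd1S+/- mice. In both groups WT mice 2 and 3 were low, and for Ces2 WT mouse 4 stood above both Mthfd1S+/- mice. The 10 other family genes stayed between -0.063 and 0.056.

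Markers of other cell types differed between mice too. All 10 smooth muscle, all 8 fibroblast and all 9 enteroendocrine markers had higher means in Mthfd1S+/- colon, where 54.0% of all rows did. Only 1, 3 and 1 of them had an unadjusted p under 0.05, and 0 passed the adjusted threshold in limma. Other lists were mixed, with 3 of 10 goblet cell markers and 2 of 8 lymphocyte markers higher. Of the crypt base stem and proliferating cell markers 5 of 8 were higher, and of the macrophage markers 6 of 8. For smooth muscle the list mean was -0.17, -0.25, -0.022 and 0.11 in WT and -0.063 and 0.40 in heterozygous mice, so WT mice 3 and 4 stood above the first Mthfd1S+/- mouse. Fibroblast means ran from -0.31 to 0.095 in WT and were 0.067 and 0.25 in Mthfd1S+/- mice, and enteroendocrine means ran from -0.32 to 0.069 and were 0.083 and 0.30. WT mouse 2 and the second Mthfd1S+/- mouse were the lowest and the highest for both the smooth muscle and the fibroblast list. The same held for Ces1d, Ces1f and Ces2b. When the smooth muscle mean entered the fit as a covariate, a setting chosen after the data were seen, the differences were 0.060 for Ces1f, 0.087 for Ces1d, 0.10 for Ces1g and 0.49 for Ces1e. They were 0.53 for Ces2a (95% interval 0.0012 to 1.07), 0.27 for Ces2b, -0.053 for Ces2e, -0.25 for Ces2g and -0.23 for Ces3a. The part of muscle, fibroblast or enteroendocrine content in these differences was not tested.

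**Figure D3:**
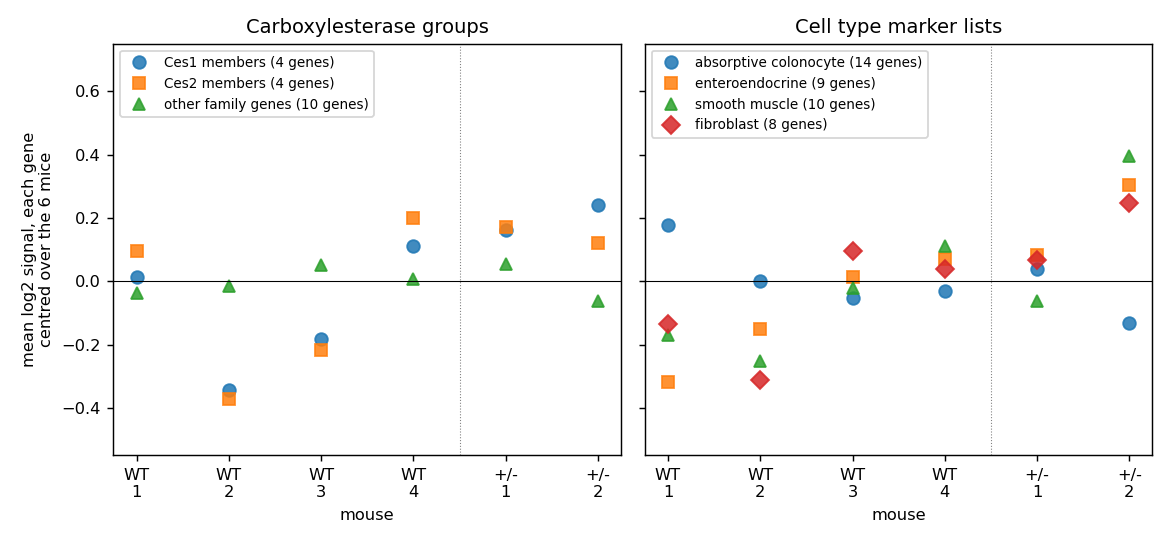
Mean log2 signal per mouse, with each gene centred over the 6 mice, for groups of carboxylesterase genes (left) and for marker lists of 4 cell types (right); the dotted line separates WT from Mthfd1S+/- mice, and each point is a list mean over the number of genes in the legend. Ces1 and Ces2 means are lowest in WT mouse 2 (-0.35 and -0.37), and the smooth muscle mean is highest in the second Mthfd1S+/- mouse (0.40).

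Absorptive colonocyte markers, a list that holds Cyp2c55 too, stood on both sides. Of the 14 with a row, 5 were on the higher and 9 on the lower side in Mthfd1S+/- colon, with means of 0.18, 0.0, -0.052 and -0.031 in WT and 0.038 and -0.13 in heterozygous mice. With this mean as a covariate, also chosen after the data were seen, Ces2a had a difference of 0.71, Ces2b of 0.55, Ces1e of 0.42, Ces1f of 0.40, Ces1g of 0.29 and Ces1d of 0.16. Of 8 small intestinal enterocyte markers 5 were higher. Their list means ran from -0.11 to 0.088 in WT and were 0.11 and -0.016 in Mthfd1S+/- mice. The levels within this list were uneven: the sucrase gene Sis was dim, at 3.78 to 4.13, and Fabp2 was bright, at 10.56 to 10.87. Of 7 liver and pancreas markers 2 were higher, and albumin (Alb) read 5.80 to 6.26 where Cela1 read 8.33 to 8.81. Among 6 markers of distal colon position 3 were higher, with means from -0.18 to 0.15 in WT and of 0.075 and -0.20 in Mthfd1S+/- mice.

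Of 22 other drug-metabolising genes, 13 stood higher and 9 lower in Mthfd1S+/- colon, with 4 higher and 0 lower at an unadjusted p under 0.05 (3.36% and 2.44% of all rows) and a median log2 difference of 0.041. Cyp2c55, a cytochrome P450 of the colon, read 12.08, 12.08, 11.72 and 12.08 in WT and 12.56 and 12.55 in heterozygous mice. Both Mthfd1S+/- mice stood above every WT mouse, with a difference of 0.57 ± 0.12 (SE). A second, dimmer row of Cyp2c55 had 0.087 ± 0.13, with overlapping groups. The sulfotransferase gene Sult1a1 differed by 0.56 ± 0.22, the efflux pump gene Abcb1a by 0.35 ± 0.15 and the glutathione transferase gene Gstm1 by 0.23 ± 0.091. For all 4 the adjusted p was 0.837 in limma. Sult1a1 in WT mouse 4, at 10.11, was close to the 10.14 and 10.16 of the Mthfd1S+/- mice. The list's largest difference was that of Cyp2e1, at -1.94 ± 0.95 (adjusted p 0.849 in limma). It is a P450 known from liver and was named after its values were seen; it read 8.07, 6.26, 9.04 and 4.98 in WT and 5.20 and 5.09 in heterozygous mice, so WT mouse 4 was the lowest of all.

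Of 18 nuclear receptors and other regulators of such enzymes, 8 were higher and 10 lower, with 0 higher and 2 lower at an unadjusted p under 0.05. These were the bile acid receptor gene Nr1h4, at -0.34 ± 0.11 (SE), and Klf4, a factor of differentiated epithelium, at -0.27 ± 0.094, both with an adjusted p of 0.837 in limma. The receptor genes Nr1i2 and Nr1i3, looked up after the data were seen, had differences of -0.025 ± 0.11 and -0.023 ± 0.11. Of 27 other ester and lipid hydrolases, 13 were higher and 14 lower, with 0 at an unadjusted p under 0.05 and a median of -0.014. Abhd6, a monoacylglycerol lipase, had 0.22 ± 0.095 and the cholesterol esterase gene Cel 0.21 ± 0.11.

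For likeness to Ces2a, 1642 rows were ranked by Pearson's r over the 6 mice. All had a mean at or above the median, a range of at least 0.5 and no symbol of a predicted gene (Gm, Rik or LOC). The closest were Dbh (0.986), which makes noradrenaline, the growth factor receptor gene Fgfr3 (0.975), Arhgap44 (0.968), the matrix gene Cilp (0.965) and Lrrc3 (0.955). As 29 of the rows had an r over 0.9 across so few mice, the ranking describes these 6 samples. Among the members, r with Ces2a was 0.892 for Ces1d, 0.831 for Ces2b, 0.805 for Ces1f and 0.621 for Ces1e. For Ces1g it was 0.263, for Ces2e 0.249, for Ces2g -0.284 and for Ces3a -0.343. The points share genotype and array, and no test was made.

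**Figure D4:**
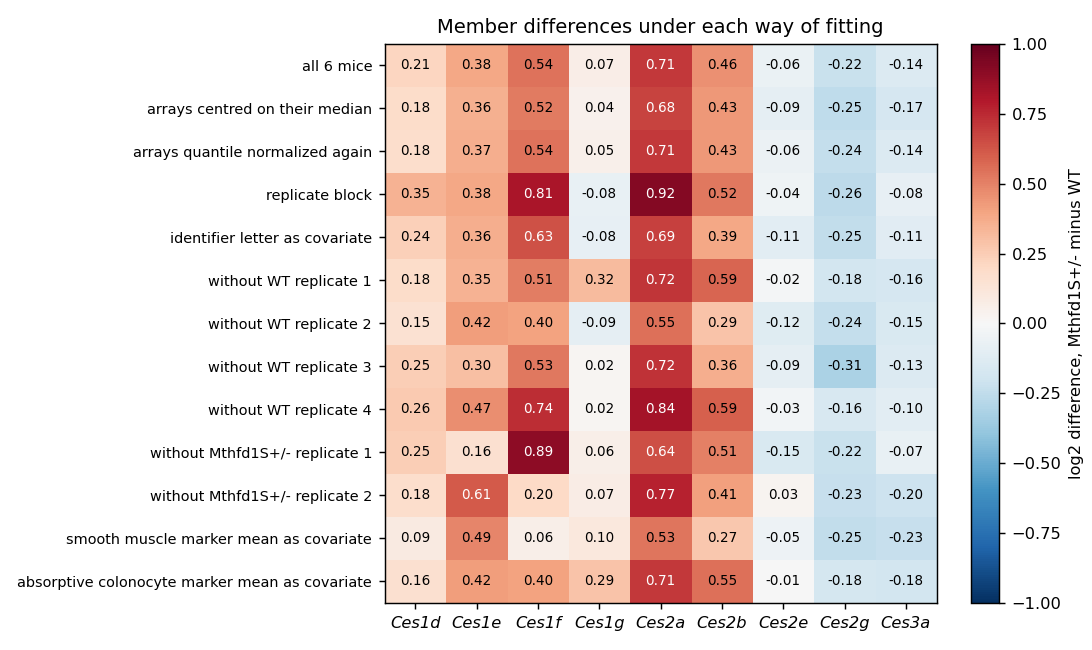
Log2 difference between Mthfd1S+/- and WT mice for each measured member (columns) under 13 ways of fitting (rows), printed in each cell and coloured from -1 (blue) to 1 (red). The Ces2a column stays between 0.53 and 0.92, while Ces1f runs from 0.060 with the smooth muscle covariate to 0.89 without the first Mthfd1S+/- mouse.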

How the data were processed

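The authors deposited log2 values for 41345 transcript clusters on 6 arrays; the submitters' processing notes name Affymetrix Expression Console. Its version and algorithm, the background correction and the build were not given in the sources used here. That the scale is log2 was read from the range of values, 1.06 to 13.5. The 23521 rows with exactly 1 platform symbol were tested; 1814 rows with several and 16010 with none were left out. The fit of genotype used limma 3.58.1 (R 4.3.3; lmFit, eBayes), two-sided and without covariates, with 4 residual and 4.35 prior degrees of freedom and Benjamini-Hochberg adjustment over all tested rows; the steps were tested on simulated data. The number of arrays limits the precision (median SE 0.106). Per the labels each array is a separate mouse. Members and lists were chosen with earlier results of these data known. Named genes are all members, other family genes by count, and up to 4 genes of smallest p per pathway list. List means use each gene centred over the 6 mice. Promoter sequences come from RefSeq (GRCm38.p6) and held windows for 6 of the 10 members, aligned with Biopython 1.88. Alternatives were other scalings, rows, filters, models and covariates, and leaving out each mouse.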

Additional observations from a re-analysis of the deposited data

Results flagged for a closer look

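Among 19 carboxylesterase genes checked over the 4 WT mice, 1 had a mouse far from the others. Ces2d-ps, a pseudogene of the Ces2 run, read 6.09 in WT mouse 1 and 6.31, 6.33 and 6.35 in the other WT mice, and the gap took 0.852 of the WT range, above the critical value of Dixon's test. Chance gives such a gap in about 1 in 20 groups, so 1 among 19 genes is near that rate. Its genotype difference was 0.058 ± 0.12 (SE).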

How the results depend on the processing

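No row passed the adjusted threshold under any of the 16 alternatives, unmoderated least squares among them. In all, 137 of 141 member values kept their direction. Part of that count was fixed in advance. The fits over all rows, at or above the median level, with an intensity trend and with unmoderated least squares leave each difference unchanged. The reversed ones were near 0. Ces1g had -0.075 with the replicate block, -0.085 with the identifier letter as covariate and -0.089 without WT mouse 2. Ces2e had 0.027 without the second Mthfd1S+/- mouse. The identifier letter, taken from the mouse identifiers in the labels, is A for mouse 1 of each genotype and B for the others. What it marks is not known here. With 1 mouse left out Ces1g ran from -0.089 to 0.32 and Ces2e from -0.15 to 0.027. At an unadjusted p under 0.05 were 1363 rows with all mice, 2600 over all rows of the table, 675 of the rows at or above the median level, 2331 with the replicate block and 1065 to 1932 with 1 mouse left out. Of the members, 2 passed that threshold with all mice, and 1 did with arrays centred on their median, quantile normalized again, over all rows, or with the absorptive colonocyte mean or the identifier letter as a covariate. When the smooth muscle mean was the covariate 3 did, of which Ces3a was lower. Without the first Mthfd1S+/- mouse Ces1f passed and Ces2a did not (unadjusted p 0.0513 in limma). With unmoderated least squares 0 did, and with 1 mouse left out 1 to 5 did, the 5 without WT mouse 4. With the replicate number as a block, 5 did and Ces2a had 0.92. That fit compares WT mice 1 and 2 with their numbered partners alone and leaves 1 residual degree of freedom. Deviations from the group mean correlated at 0.117 and -0.044 between same-numbered mice. With 2 heterozygous mice these deviations are exact opposites, so the correlations cannot settle whether the numbers mark pairs. Each member had 1 row, so no other row per gene could be tried. With the arrays centred on their median the median difference over all rows was -0.015 in place of 0.012. Signal over background could not be judged, since detection calls were not used here.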

Other observations

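Genes that store and move the lipids on which carboxylesterases act did not share a direction. Of 17 measured genes of triacylglycerol and retinyl ester handling, 8 were higher and 9 lower in Mthfd1S+/- colon, with a median log2 difference of -0.00019. Mttp, which loads lipid onto lipoproteins, had 0.21 ± 0.089 (SE) and Dgat2l6 -0.29 ± 0.12, both dim, and the lipid droplet gene Plin2 had 0.26 ± 0.12. Cidec, a droplet gene of fat cells, had -0.89 ± 0.42. The adjusted p was 0.837 for the first 3 and 0.839 for Cidec in limma.

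Adipocyte markers were lower in 7 of 8, with list means of 0.35, -0.10, 1.12 and -0.37 in WT and -0.54 and -0.45 in heterozygous mice. WT mouse 3 stood highest and WT mouse 1 next, as they did for Cyp2e1 (9.04 and 8.07). The part of fat content in the values of Cyp2e1 and of the carboxylesterases known from fat was not tested.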
